A study of Rattus norvegicus with 16 samples.

Results

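Cxcl1, Cd48 and C1qb are the genes of a chemokine, a leukocyte surface protein and a complement subunit, and their transcripts were measured in a fast hind-limb muscle, the extensor digitorum longus (EDL), of Brown-Norway rats. The probes were chosen by gene symbol in the array's annotation, with Gro1 accepted as the older symbol of Cxcl1, and each gene had 1 probe, which gave 3 of the 1176 tested probes. Muscle denervated for 2 months was measured on 8 arrays and control muscle on 8 arrays, and the rats of both groups were 6 months old. The arrays were nylon membranes hybridised with labelled cDNA from total RNA, and 1 array was taken as 1 rat, as the titles number them. The labels give neither the way the muscle was denervated nor the sex of the rats, and rats are numbered 1 to 8 in both groups without a statement that a number marks the same animal. Nothing in the labels says how the tissue samples were taken, so the p-values measure the spread between these arrays.

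Cxcl1 is a chemokine that draws neutrophils into tissue through the receptor Cxcr2, and its gene is switched on by NF-kB in many cell types. Cd48 is a protein of the SLAM family, held in the membrane of leukocytes by a lipid anchor, and it binds Cd2 and Cd244 on T cells and natural killer cells. C1qb encodes the B chain of C1q, the recognition molecule that starts the classical complement pathway, which in most tissues is made by macrophages. Healthy skeletal muscle holds resident macrophages and few other leukocytes.

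The promoters of the 3 genes are shown because they hold the bases next to each gene's start, where factors such as NF-kB are known to act on Cxcl1. They come from RefSeq (assembly GRCr8), with 250 bases before and 50 bases after the start that its promoter table uses, read 5′ to 3′ on the gene's strand. That start is the gene's first base for Cxcl1 and C1qb, and for Cd48 it lies 34 bases inside the gene as RefSeq's gene table bounds it. The Cxcl1 window lies at chr14:17479272-17479571 on the minus strand, the Cd48 window at chr13:86717744-86718043 on the plus strand and the C1qb window at chr5:154407778-154408077 on the minus strand. Capitals mark a match to the NF-kB pattern GGAATTTCC (GGAAATTCC on the other strand) in Cxcl1, and matches to the ETS pattern GGAAGT, read on the other strand as ACTTCC, in Cd48 and C1qb.
Cxcl1: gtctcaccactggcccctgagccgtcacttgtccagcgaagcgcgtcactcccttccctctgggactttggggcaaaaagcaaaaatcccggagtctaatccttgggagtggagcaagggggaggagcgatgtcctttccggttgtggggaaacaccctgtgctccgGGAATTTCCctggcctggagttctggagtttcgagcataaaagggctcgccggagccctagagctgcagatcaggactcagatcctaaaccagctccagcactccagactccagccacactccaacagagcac
Cd48: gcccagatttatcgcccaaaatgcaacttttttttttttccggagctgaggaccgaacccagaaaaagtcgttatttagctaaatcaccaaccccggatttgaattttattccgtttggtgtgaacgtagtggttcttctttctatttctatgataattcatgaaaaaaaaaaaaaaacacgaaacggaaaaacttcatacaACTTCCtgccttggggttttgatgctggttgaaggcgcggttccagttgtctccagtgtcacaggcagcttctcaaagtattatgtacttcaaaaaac
C1qb: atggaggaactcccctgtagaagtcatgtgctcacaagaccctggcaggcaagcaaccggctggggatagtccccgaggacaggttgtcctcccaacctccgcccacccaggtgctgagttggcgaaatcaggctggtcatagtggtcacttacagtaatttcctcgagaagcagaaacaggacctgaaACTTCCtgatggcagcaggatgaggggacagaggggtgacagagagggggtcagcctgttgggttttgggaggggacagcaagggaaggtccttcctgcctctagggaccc
The NF-kB pattern began 83 bases before the start of Cxcl1, on the gene's own strand. The ETS pattern began 61 bases before the start of C1qb. In Cd48 it began 48 bases before the promoter table's start and 14 bases before the gene's first base. Searched on both strands, the NF-kB pattern stood in 111 of 33469 promoter windows (0.332%) and the ETS pattern in 7556 of them (22.6%). The patterns do not overlap in these windows. They were chosen after the sequences had been read, and a match is a description of the letters and not a measured binding site. C1qb stands beside C1qc and C1qa on chromosome 5, neither of which was analysed here, so only the B chain of C1q is described.

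The deposited values are on a logarithmic scale whose base is not given in the sources used here, so each difference is printed in log units without a fold change. The lowest value of an array was shared by 22 to 206 probes and is called the floor, and a value at the floor is an upper bound on the level. Floors averaged 4.30 log units on the denervated arrays and 5.55 on the control arrays, a difference of -1.25. In rats 1 to 4 the mean floor was 5.52 on denervated and 5.82 on control arrays, and in rats 5 to 8 it was 3.08 on denervated and 5.27 on control arrays. Array medians lay between 7.97 and 8.60 on 15 arrays, and the array of control rat 6 stood apart with a median of 6.98. Muscle identity was checked with 6 measured genes of 26 muscle markers. Of these, 5 were above the floor on every array and the thin-filament gene Tpm1 was at the floor on 4 denervated and 5 control arrays. The denervation markers Tnnt2, Myh3, Runx1, Ncam1 and Myog all rose in denervated muscle past the threshold, which 6.29% of all tested probes passed. As deposited they rose by 1.85 to 5.34 log units. Myh3 was at the floor on 7 control arrays, Tnnt2 on 4 and Runx1 on 3, so the sizes of their differences rest partly on bounds. With each value below the highest floor set to that floor, the differences were 2.60 for Myh3, 4.66 for Tnnt2 and 3.17 for Runx1, still past the threshold. Among the muscle markers the kinase gene Mylk2 fell by 1.87 log units (adjusted p = 4.18e-04), and the others did not pass the threshold as deposited. Of those, Ckm differed by 0.70, Tpm2 by 0.60, Pgam2 by 0.15, Cacna1s by -0.03 and Tpm1 by -0.59. After quantile normalisation Cacna1s (-0.79, adjusted p = 0.00230) and Pgam2 (-0.93, adjusted p = 0.0172) passed too, with 5.27% of probes called.

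None of the 3 genes passed the adjusted threshold of 0.05 over all tested probes, where 6.29% of probes were called (74 of 1176), 5.44% as higher (64) and 0.85% as lower (10). The difference between denervated and control muscle was negative for Cxcl1 and positive for Cd48 and C1qb. Each gene had an unadjusted p under 0.05, as did 17.9% of all tested probes (211), and since the genes were chosen with earlier results of these data known, their number is not read against that share. The adjusted p-values are from limma, a linear model fitted to all probes together. In whole muscle, fewer cells of a type and less RNA per cell cannot be told apart.

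**Figure D1:**
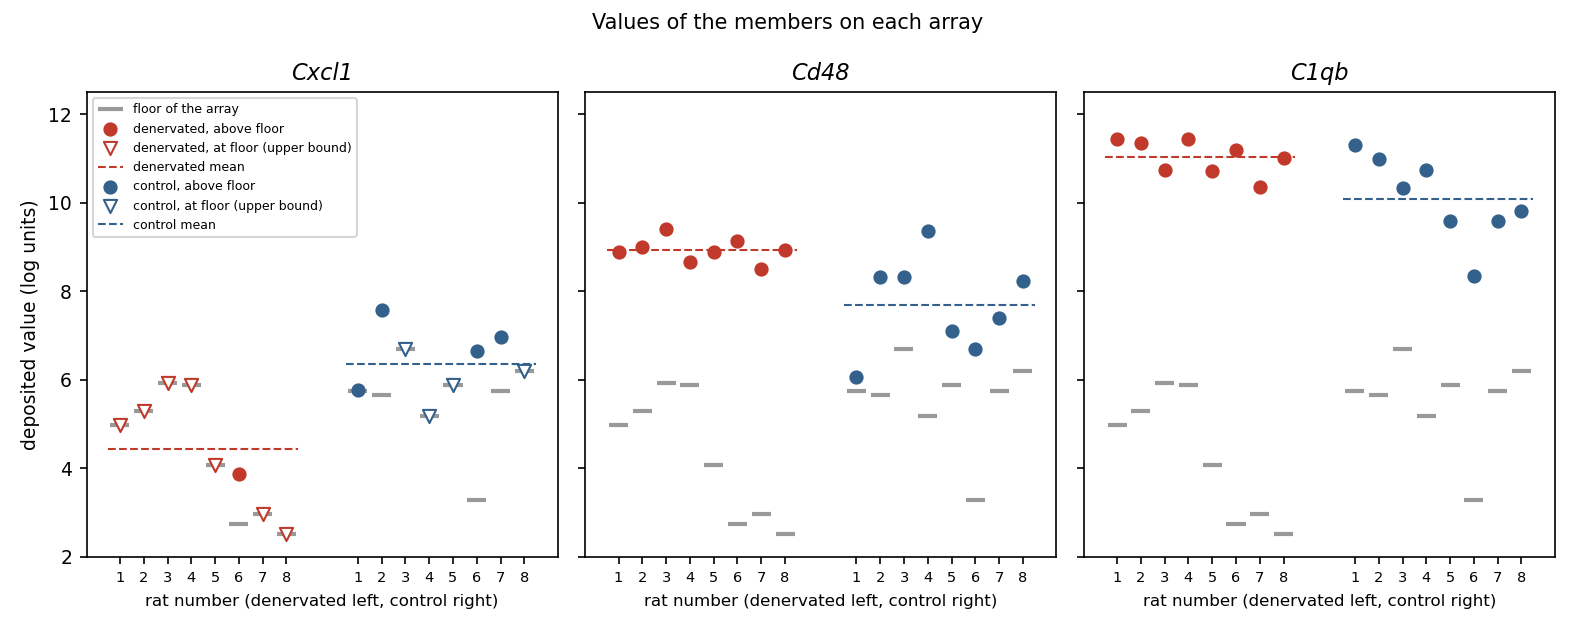
Deposited values (log units, vertical axis) of Cxcl1, Cd48 and C1qb on each array, by rat number, with denervated arrays on the left of each panel and control arrays on the right. Filled points are above the array's floor, open triangles are at it and are upper bounds, grey dashes are floors and dashed lines are group means; 7 of 8 denervated arrays have Cxcl1 at the floor, while Cd48 and C1qb lie above the floor on all 16.

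Cxcl1 was at the floor on all but 1 denervated array, and its difference did not pass the threshold in limma. The denervated values were lowest at 2.51, had a median of 4.53 and were highest at 5.93 log units, while the control values were lowest at 5.18, had a median of 6.42 and were highest at 7.59. On 7 of 8 denervated arrays and 4 of 8 control arrays the value was the floor itself. The 1 denervated array above its floor was that of rat 6, at 3.88, and the control arrays above their floors were those of rats 1, 2, 6 and 7, at 5.77, 7.59, 6.65 and 6.97. The value of control rat 1 exceeded that array's floor by 0.02. The share of arrays above their own floor, 1 of 8 denervated against 4 of 8 control, did not pass Fisher's exact test (two-sided p = 0.282).

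The mean of Cxcl1 was 4.44 ± 1.29 log units in denervated and 6.37 ± 0.76 in control muscle (SD, n = 8 each). The difference was -1.92 log units (SE 0.63, 95% confidence interval -3.19 to -0.66), with an adjusted p of 0.0550 in limma, and 5 of 8 control arrays had a deposited value above all denervated arrays. Of these 5, the arrays of control rats 3 and 8 were at their own floors, so that their values are upper bounds. The groups overlapped through the control arrays of rats 1, 4 and 5. An exact permutation test over arrays, adjusted over the same probes, gave an adjusted p of 0.0471, at which 5.7% of probes were called. Both means rest largely on floors: 2 other probes at the floor on all 16 arrays differed by -1.25 log units through the floors alone. When each value below the highest floor, 6.69, was set to it, the difference of Cxcl1 was -0.15 (95% interval -0.39 to 0.09, adjusted p = 0.557), and only the control arrays of rats 2 and 7 remained above that level. Within rats 5 to 8, where the floors differed most, the difference was -3.06 (adjusted p = 0.0460, with 11.8% of probes called), against -0.78 (adjusted p = 0.634) within rats 1 to 4. The test of the change between the 2 sets of rats gave -2.28 log units (adjusted p = 0.330).

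Cd48 values were higher and closer together on the denervated arrays, and the difference in means did not pass the threshold. The denervated values were lowest at 8.51, had a median of 8.91 and were highest at 9.41 log units, against a lowest of 6.07, a median of 7.82 and a highest of 9.36 in control muscle. On 7 of 8 control arrays Cd48 lay below every denervated array, and the exception was control rat 4, at 9.36. After array centring or quantile normalisation, 4 of 8 control arrays lay below every denervated array. The mean was 8.93 ± 0.28 in denervated and 7.69 ± 1.06 log units in control muscle (SD, n = 8 each), a difference of 1.24 (SE 0.42, 95% interval 0.39 to 2.08, adjusted p = 0.0688 in limma). After array centring the difference was 1.03 (adjusted p = 0.130). Without the array of control rat 4, the highest control value, the difference was 1.48 (adjusted p = 0.0229, with 8.33% of probes called). Without that of control rat 2 its adjusted p was 0.0479, with 7.74% of probes called. Only these 2 of the 16 arrays, each left out in turn, took Cd48 past the threshold. Without the array of control rat 1, which had the lowest value, the difference was 1.0, the smallest over the 16 arrays left out in turn. Within the sets of rats the difference was 0.98 (adjusted p = 0.539) in rats 1 to 4 and 1.50 (adjusted p = 0.111) in rats 5 to 8, and the test of the change between the sets gave 0.52 (adjusted p = 0.788).

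As deposited, the SD of Cd48 between rats was 0.28 log units in denervated muscle, which was lower than that of all but 38 of the 1176 probes (3.23%). The median over all probes in denervated muscle, those at the floor included, was 0.77. In control muscle its SD of 1.06 was near the median of 0.99. After array centring the SD of Cd48 was 0.41 in denervated and 0.98 in control muscle, and after quantile normalisation 0.37 and 1.12. Those SDs were not ranked among the probes. The equality of the SDs in the 2 groups was not tested.

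C1qb values averaged higher on the denervated arrays, and the difference did not pass the threshold. Its denervated values were lowest at 10.36, had a median of 11.10 and were highest at 11.44 log units, and its control values were lowest at 8.34, had a median of 10.07 and were highest at 11.29. The groups overlapped, with 3 denervated arrays above all controls and 5 control arrays below all denervated arrays. The mean was 11.03 ± 0.39 in denervated and 10.09 ± 0.95 log units in control muscle (SD, n = 8 each), a difference of 0.95 (SE 0.38, 95% interval 0.18 to 1.71, adjusted p = 0.138 in limma). The array of control rat 6, which stood apart, held the lowest value, and without it the difference was 0.70 (adjusted p = 0.214). After quantile normalisation the difference was 0.33 (95% interval -0.01 to 0.68, adjusted p = 0.313).

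The C1qb difference passed the threshold within rats 5 to 8, where 11.8% of probes were called, and not within rats 1 to 4. Rats 5 to 8 had a mean of 10.82 ± 0.36 in denervated and 9.33 ± 0.67 log units in control muscle (SD, n = 4 each), a difference of 1.49 (adjusted p = 0.00526). Rats 1 to 4 had a mean of 11.24 ± 0.33 in denervated and 10.84 ± 0.41 log units in control muscle, a difference of 0.41 (adjusted p = 0.746). With each array centred on its median, rats 5 to 8 had 2.29 ± 0.42 above the array median in denervated and 1.31 ± 0.23 in control muscle, a difference of 0.99 (adjusted p = 0.0152, with 9.1% of probes called). The centred difference in rats 1 to 4 was 0.49 (adjusted p = 0.693). The test of the change between the sets gave 1.08 log units (adjusted p = 0.368) as deposited and 0.50 (adjusted p = 0.743) after centring. With the sets as a block, all 3 genes passed, at adjusted p-values of 0.0270 for Cxcl1, 0.0346 for Cd48 and 0.0324 for C1qb, and 11.1% of probes were called. With centring added to that block, Cd48 did not pass (1.03, adjusted p = 0.0568), while Cxcl1 (adjusted p = 0.0146) and C1qb (adjusted p = 0.0382) did, with 9.95% of probes called.

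**Figure D2:**
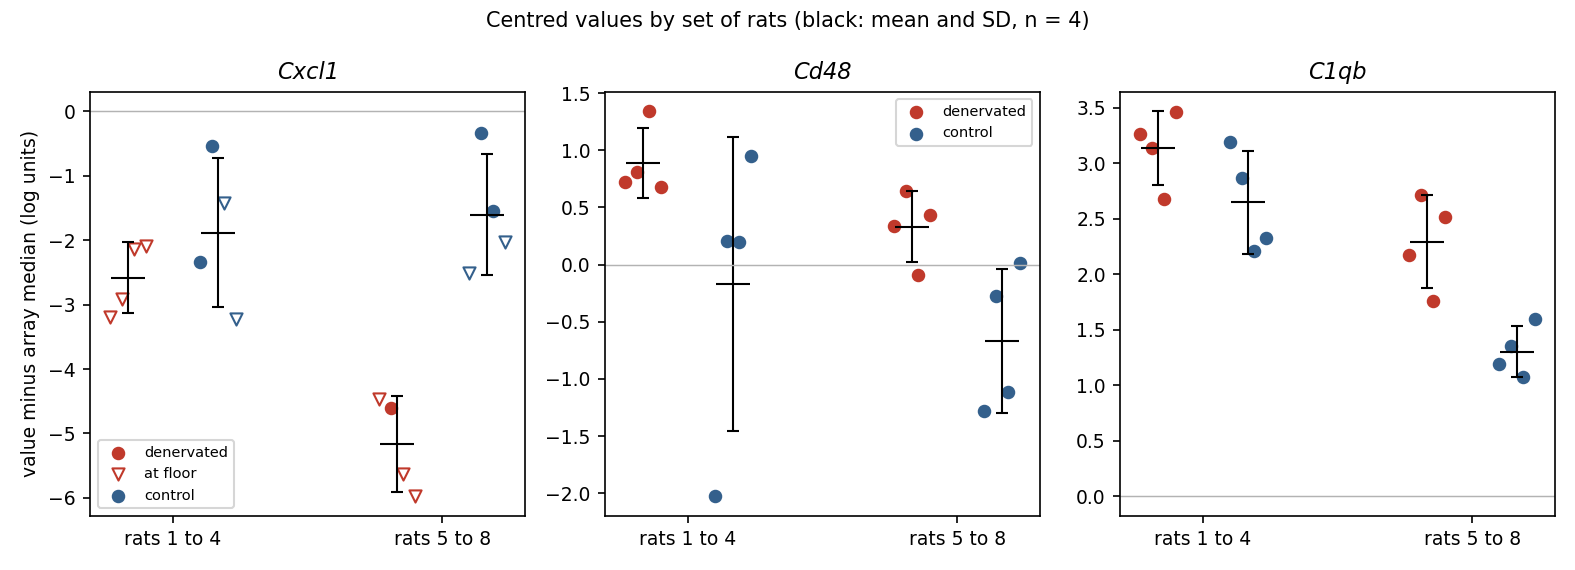
Values of each gene minus the median of its array (log units, vertical axis), for rats 1 to 4 and rats 5 to 8, with denervated arrays (red) left of control arrays (blue) in each set, black bars for mean and SD (n = 4) and open triangles, red or blue, for values at the floor. The denervated C1qb values of rats 5 to 8 lie above all control values of that set, as those of 10.1% of all probes (119) do, at a mean of 2.29 against 1.31. The axes differ between panels.

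**Figure D3:**
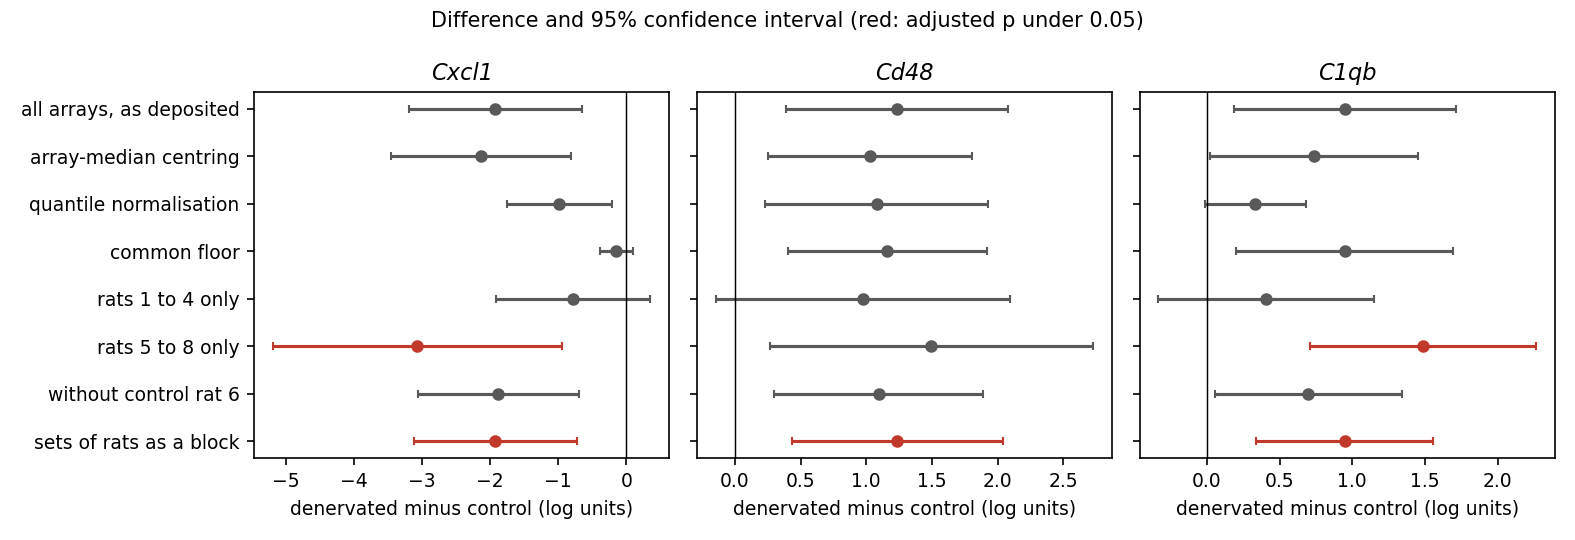
Denervated minus control difference (log units, horizontal axis) with its 95% confidence interval for the 3 genes under 8 settings; points in red had an adjusted p under 0.05. The common floor brings Cxcl1 to -0.15, Cd48 and C1qb are positive in every setting drawn, and the axes differ between panels.

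The sets of rats were taken from the rat numbers, and no label names them as batches. The floors and the low array move with the group, and their part in the Cd48 and C1qb differences was not tested beyond these values. Both genes were above their arrays' floors on all 16 arrays, and with the common floor Cd48 differed by 1.16 (adjusted p = 0.0712). The Cd48 value of control rat 1, at 6.07, exceeded that array's floor by only 0.33 and lay below the common floor of 6.69.

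Few other genes of these pathways were tested, and none of the 33 measured genes of the immune lists, Cxcl1, Cd48 and C1qb included, passed the threshold over all probes, against the 6.29% of all probes called. Of the 33, 8 had an unadjusted p under 0.05 and 22 had a positive difference, with a median of 0.35 log units, against 0.22 over all tested probes, of which 749 (63.7%) were positive. Without these 3 genes, 5 of 30 had an unadjusted p under 0.05, 20 were positive and the median was 0.35. Over all tested probes the share with an unadjusted p under 0.05 was 17.9% (211). Array centring moved the differences of all probes by the same amount. After it, the gene at the median of the 33 differed by 0.14 and the median over all probes was 0.01.

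Of the 37 complement genes listed, 11 were measured, 7 had a positive difference and none passed. Their median was 0.18 log units as deposited, -0.03 after array centring and -0.27 after quantile normalisation. C4bpb, the beta chain of the C4b-binding protein that limits the classical pathway, averaged 8.72 ± 0.64 log units in denervated and 7.28 ± 1.72 in control muscle (difference 1.43, SE 0.52, adjusted p = 0.0950). Without control rat 6, which was at its floor there, that difference was 0.86 (adjusted p = 0.191). C4bpa, the alpha chain of the same protein, was named after its value was seen. It differed by -0.18 (adjusted p = 0.901), and by -0.60 after quantile normalisation (adjusted p = 0.636). Cd59b, a membrane-bound inhibitor of the membrane attack complex, averaged 9.71 ± 0.40 in denervated and 8.82 ± 0.76 in control muscle (difference 0.89, adjusted p = 0.139). C1s, C4b and Cd55 were named after their values were seen, because they act next to C1q or were called in another setting. C1s, a protease of the classical pathway, differed by 0.51 (adjusted p = 0.472), and C4b, its substrate, by 0.83 (adjusted p = 0.288). Cd55, which speeds the decay of the enzymes that cleave C3, differed by -0.64 (adjusted p = 0.382), and by -0.95 after quantile normalisation, where it passed (adjusted p = 0.0222, with 5.27% of probes called).

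Of 34 chemokine and chemokine receptor genes, 5 were measured and none passed, with a median of -0.27 log units. Without Cxcl1, whose values were mostly floors, the median of the other 4 was 0.07. Cx3cl1, the membrane-anchored chemokine fractalkine, averaged 10.45 ± 1.07 log units in denervated and 9.41 ± 0.67 in control muscle (difference 1.05, adjusted p = 0.111). Cxcr5, a receptor on B cells, differed by 0.41 (adjusted p = 0.729). Ccr3, a receptor of eosinophils, differed by -0.63 (adjusted p = 0.571), and Xcl1, a chemokine of lymphocytes, by -0.27 (adjusted p = 0.869). Cxcr2, the receptor of Cxcl1, was not analysed here. Of 54 cytokine and NF-kB genes, 1 was measured, the interleukin receptor gene Il1rl1, which was at the floor on 1 denervated and 4 control arrays and differed by 0.37 (adjusted p = 0.811), and Cd48 alone was measured from 13 CD2 and SLAM family genes.

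Of 23 macrophage markers, 1 was measured. It was Aif1, also called Iba1, which averaged 9.07 ± 0.38 log units in denervated and 8.27 ± 1.26 in control muscle (difference 0.80, adjusted p = 0.312). On 1 control array its value was the floor. The 25 antigen presentation genes and 6 blood genes listed were not analysed here. Of 49 lymphocyte, natural killer and mast cell markers, 12 were measured, 9 of them with a positive difference, a median of 0.35 and none past the threshold. That median was 0.14 after array centring and 0.07 after quantile normalisation. Klrd1, the CD94 chain of receptors on natural killer cells, averaged 10.98 ± 0.57 in denervated and 9.89 ± 0.71 in control muscle (difference 1.09, adjusted p = 0.0669). Fcer1a, a chain of the mast cell IgE receptor, differed by 0.67 (adjusted p = 0.315), and the T cell and stromal marker Thy1 by 0.64 (adjusted p = 0.371). The mean over the 12 genes ran from 8.27 to 9.04 log units across denervated arrays and from 7.05 to 8.92 across control arrays, and its part in the Cd48 and C1qb differences was not tested.

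Of 14 neutrophil and platelet genes, 2 were measured. S100a9, a calcium-binding protein abundant in neutrophils, averaged 4.90 log units in denervated and 6.53 in control muscle (difference -1.63, adjusted p = 0.114). It was at the floor on 5 denervated and 3 control arrays, and with the common floor of 6.69 its difference was -0.29 (adjusted p = 0.497). The platelet gene Gp5 differed by 0.46 (adjusted p = 0.665). Without control rat 6 the differences were 0.13 for Gp5, 0.10 for Il1rl1, 0.18 for Cxcr5 and 0.42 for Fcer1a. Aif1 differed by 0.50 without control rat 8, and Ccr3 by -0.38 without denervated rat 6.

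Other genes of these lists passed in some settings. Within rats 5 to 8, Cx3cl1 (1.76, adjusted p = 0.00103), Klrd1 (1.65, adjusted p = 0.00139) and Cd59b (1.44, adjusted p = 0.0245) passed. There 11.8% of all tested probes were called. With the sets of rats as a block, where 11.1% were called, C4bpb (adjusted p = 0.0454), Cx3cl1 (adjusted p = 0.0418) and Klrd1 (adjusted p = 0.0165) passed. S100a9 passed by the exact permutation test (adjusted p = 0.0471, with 5.7% of probes called). The intervals of all 33 genes are drawn in the plot of immune genes.

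**Figure D4:**
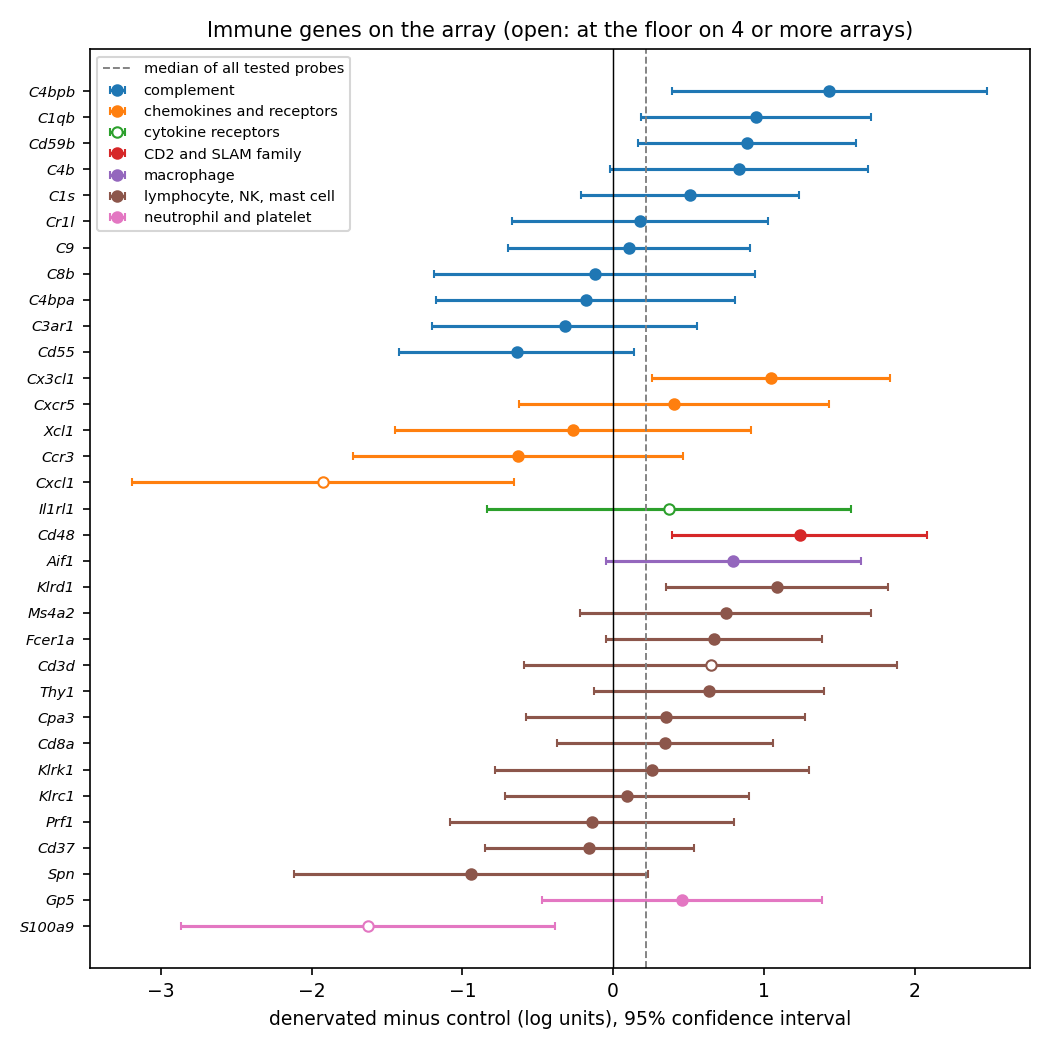
Denervated minus control difference (log units, horizontal axis) with its 95% confidence interval for the 33 measured genes of the immune lists, coloured by list; open points were at the floor on 4 or more of 16 arrays. The dashed line is the median of all tested probes, 0.22, and Cxcl1 and S100a9 are the genes farthest to the left.

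The genes most like Cd48 and C1qb across arrays were not those of the immune lists. With array-centred values on 16 arrays and 1036 genes ranked, Cd48 followed Pmpcb (r = 0.874) and Lrpap1 (r = 0.843). Pmpcb encodes a mitochondrial processing peptidase subunit and differed past the threshold (1.24, adjusted p = 0.0318). Lrpap1 encodes a chaperone of lipoprotein receptors and differed by 0.73 (adjusted p = 0.356). C1qb stood at rank 174 for Cd48, with r = 0.418. C1qb followed the ribosomal protein genes Rps7 (r = 0.970) and Rpl14 (r = 0.969) and the magnesium transporter gene Magt1 (r = 0.965), and Cd48 stood at rank 325 for it. With C1qb, 32 genes had r over 0.9 over both groups together, 7 of them ribosomal protein genes, while no gene had r over 0.9 with Cd48. The share of ribosomal protein genes among the 1036 was not counted, so the 7 are not read as an excess. The 32 genes had a median level of 10.9 log units and all probes one of 8.05. Values of 1 array share its labelling and scaling, and these correlations are given as descriptions. Cxcl1 was above the floor on 5 arrays, too few to rank genes by likeness to it.

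Cd48 and C1qb were compared across rats within each group on centred values. In denervated muscle Pearson's r was 0.62 (exact permutation p = 0.0967, adjusted over the 2 groups 0.193) and Spearman's rho was 0.67 (p = 0.0831, adjusted 0.166). In control muscle r was 0.05 (exact permutation p = 0.907) and rho 0.29 (p = 0.501). Without the 2 arrays farthest from the median of Cd48, r was 0.87 (exact p = 0.0222, n = 6) in denervated and 0.75 (exact p = 0.0722, n = 6) in control muscle. On the same arrays rho was 0.77 (exact p = 0.103) in denervated and 0.94 (exact p = 0.0167) in control muscle, p-values not adjusted. Leaving out the array of control rat 1 alone gave r = 0.79 in control muscle, so the low value there rested on that array. As deposited, without centring, r was 0.13 in denervated and 0.26 in control muscle. Without the 2 arrays farthest from the median of Cd48 on that scale, r was -0.16 in denervated and 0.87 in control muscle (n = 6 each). The denervated correlation after leaving out arrays thus depended on the centring.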

How the data were processed

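The authors hybridised labelled cDNA to Clontech Rat Atlas 1.2 Array II membranes, imaged them with a phosphorimager, quantified spots with Array Vision and normalised by linear regression, per the labels. What was deposited is a log-scale score per probe, as the values show, whose base, background treatment and repeated lowest values are not explained in the labels or files. Of 1185 probes, 9 of reference genes on another scale were left out. The platform annotation gave 1106 of the 1176 tested probes 1 gene, 2 several and 68 none, and 1099 of these 1106 probes had a gene ID found in the RefSeq table of GRCr8. Probes can bind transcripts of related genes. No depth exists for arrays, and their number limits the precision.

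Values were compared as deposited with limma 3.58.1 in R 4.3.3 (two-sided moderated test, variance trend on) and Benjamini-Hochberg adjustment over all tested probes, at a threshold of 0.05. The procedure was tested on simulated data. From each list, all measured genes were named where 6 or fewer were measured, otherwise the 3 with the lowest p and any past the threshold; for likeness, the 3 genes with the highest correlation, of which 1 is not reported here. The members and lists were chosen with earlier results of these data known. Alternatives were array centring, quantile normalisation, a common floor, exact permutation, array weights, no trend, blocks by rat number or set of rats, separate sets and leaving out each array. Same-numbered arrays of the groups correlated at 0.059 to 0.193 in their deviations, over 0.1 in 7 of 8 pairs. Pairing by number was to be assumed only where all pairs exceeded 0.1, so with rat 8 at 0.059 it was not, and the block by rat number is given as an alternative. No 2 arrays were copies, since at most 0.085% of values were identical in any of 120 pairs. Promoters came from RefSeq (GRCr8). Figures used matplotlib 3.10.9.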

Additional observations from a re-analysis of the deposited data

Results flagged for a closer look

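Of 74 groups of 8 arrays examined, 6 had a highest or lowest array whose gap to its nearest neighbour, as a share of the group's range, was over Dixon's 95% critical value, and chance marks about 1 in 20 such groups. All 6 were the array of control rat 6. Its median over all probes was 6.98 log units, below those of the other control arrays. Its value was at the floor of 3.27 for C4bpb, Myh3, Tnnt2 and Tpm1, and 7.96 for Cx3cl1. None of the values of Cxcl1, Cd48 or C1qb was marked in this way.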

How the results depend on the processing

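The number of changed probes was 74 as deposited (6.29% of 1176). It was 62 (5.27%) after quantile normalisation, 67 (5.7%) by exact permutation, 86 (7.31%) with array weights and 42 (3.57%) without the variance trend. With centring and a common floor it was 46 (3.91%). Within rats 1 to 4 it was 30 (2.55%), or 31 centred, and within rats 5 to 8 it was 139 (11.8%), or 107 (9.1%) centred. The sets of rats as a block gave 131 (11.1%), or 117 (9.95%) with centring. The replicate block gave 113 (9.61%), or 141 (12%) with centring. With an array left out it ran from 43 (3.66%) to 98 (8.33%). Of the 33 genes of the immune lists 0 passed as deposited. There was 1 after quantile normalisation or without the trend, and 2 by exact permutation or with array weights. In rats 5 to 8 there were 5 (4 centred), with the sets as a block 6 (4 with centring) and with the replicate block 5 (7 with centring). With an array left out there were 0 to 4. These counts stand beside the shares over all probes and were not tested against them. Cxcl1 passed at -1.92 by exact permutation, without the trend, and with either block (replicate block adjusted p = 0.0235), at -2.13 with centring and either block, at -1.99 with weights, and in rats 5 to 8 at -3.06 (-3.56 centred). Leaving out an array gave -2.13 to -1.65, past the threshold without denervated rats 3 or 4 or control rat 4. Cd48 passed at 1.24 with either block (replicate block adjusted p = 0.0431) and at 1.03 with centring and the replicate block (adjusted p = 0.0440); an array left out gave 1.0 to 1.48. C1qb passed at 0.95 with the sets as a block, at 0.74 with centring and either block, and in rats 5 to 8 at 1.49 (0.99 centred); an array left out gave 0.70 to 1.12, never past the threshold. All 3 members kept their direction in each setting run. The replicate block takes rat numbers as pairs, which the labels do not state; 7 of 8 same-number correlations were over 0.1, and 3 of 8 numbers matched best with their own, as a hint from the data and not the design.

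The Cd48 and C1qb correlation in control muscle was -0.087 after quantile normalisation and ran from -0.11 to 0.79 with an array left out; in denervated muscle it ran from 0.29 to 0.92. Other signs turned as follows, with Klrc1, Prf1, Cd37, Spn and C4bpa left out. In rats 1 to 4 the differences were -0.061 for C1s, -0.10 for Cxcr5 (-0.019 centred), -0.40 for Gp5 (-0.32), -0.33 for Pgam2 (-0.25), -0.29 for Tpm2 (-0.21) and 0.14 for Xcl1 (0.22). In rats 5 to 8 they were 0.52 for Cacna1s (0.021 centred) and 0.23 for Cd55. Pgam2 was -0.062 with centring, alone or with a common floor or either block, -0.060 with centring and without control rat 6, and -0.93 after quantile normalisation, where Tpm2 was -0.60. With a common floor Tpm1 was 0.015 (0.066 centred) and Xcl1 0.15 (0.12). With an array left out Cacna1s ran from -0.25 to 0.13, Pgam2 from -0.073 to 0.44 and Xcl1 from -0.48 to 0.047. The causes were not tested. Signal at the floor limits Cxcl1 and S100a9, whose levels there are bounds.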
